A study of Mus musculus with 21 samples.

Results

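Lenvatinib given alone was compared with placebo in subcutaneous mouse liver tumours. The comparison takes the 5 tumours labelled as the lenvatinib arm and the 6 labelled as the placebo arm, 11 of the 21 tumours of the series, and covers all 22206 probe sets on the array that are not controls. All tumours grew from Hepa1-6 cells, a hepatoma line, placed beneath the skin of C57BL/6J females aged 5 to 6 weeks, and treatment began at a tumour volume of 200 mm3. Lenvatinib mice were gavaged once a day at 10 mg/kg. Placebo mice were given the vehicle together with a polyclonal IgG, and the labels do not say whether the lenvatinib mice also received IgG. The other 10 tumours, 5 treated with an anti-PD1 antibody and 5 with the antibody and lenvatinib, enter here through the shared estimate of spread and through 1 comparison at the end. Those given the antibody had 5 injections of 10 mg/kg, spaced 3 days apart. On day 13 all tumours were removed, lenvatinib having last been given 2 h earlier and the antibody 1 day earlier, and RNA came from 30 mg of tissue. The line is a single hepatoma line growing under the skin rather than in the liver, and each piece of tissue holds whatever host stroma, vessels, fat and muscle came with it.

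Lenvatinib is an inhibitor of receptor tyrosine kinases. It blocks the VEGF receptors, through which endothelial cells sprout and survive, and the FGF receptors, through which hepatoma cells with an active FGF19 axis receive growth signals, and it also blocks PDGF receptor alpha, KIT and RET. Below these receptors the RAS and MAP kinase cascade induces its own inhibitors of the Sprouty, SPRED and DUSP families and the ETS transcription factors, so the transcripts of these genes are commonly read as an output of the cascade.

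No gene passed the test between the arms, and the size and precision of the differences are what the data give. With limma and Benjamini-Hochberg adjustment 0 of 22206 probe sets, or 0%, had an adjusted p under 0.05, and the smallest was adjusted p = 0.693. At an unadjusted p under 0.05, 649 probe sets (2.92%) were higher and 899 (4.05%) lower with lenvatinib. In 64 probe sets (0.288%) every lenvatinib tumour lay above every placebo tumour, and in 67 (0.302%) every one lay below. The 95% interval lay within a 2-fold change in either direction for 16812 probe sets (75.7%) and within a 1.5-fold change for 7363 (33.2%). Over all probe sets the median log2 difference was -0.01, with 49.1% above 0, and these are the values to hold the gene lists against. All values below are log2 array signals, differences are lenvatinib minus placebo with their standard error, and signals of different genes are not comparable with each other.

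The placebo arm was not uniform, and this touches most of what follows. Placebo mice 1, 4 and 6 had low levels of the hepatoma genes and high levels of fat genes. Albumin (Alb) stood at 7.56, 10.35 and 7.65 in these 3 tumours, against 12.46, 12.19 and 12.33 in placebo mice 2, 3 and 5 and between 12.22 and 12.47 in the 5 lenvatinib tumours. Alpha-fetoprotein (Afp), the fetal counterpart of albumin that hepatomas make, stood at 5.60, 8.90 and 5.05 against 11.48, 11.19 and 11.39, with 10.86 to 11.91 under lenvatinib. Adiponectin (Adipoq), a hormone of fat cells, ran the other way, at 11.32, 11.49 and 11.04 in placebo mice 1, 4 and 6, and at 6.26, 9.46 and 7.86 in placebo mice 2, 3 and 5. Under lenvatinib it ranged from 4.15 in mouse 3 to 8.67 in mouse 4. All 5 lenvatinib tumours therefore had the albumin level of placebo mice 2, 3 and 5, and 4 of the 5 had, among the 11, their highest correlation over all probe sets with a placebo tumour. The list medians below are also given without placebo mice 1, 4 and 6. These 3 were picked for their levels of hepatoma and fat genes. Smaller differences in genes that follow those levels are therefore built into this setting, and they do not test an effect of lenvatinib. With these 3 tumours left out, 86 probe sets were higher and 90 lower at an unadjusted p under 0.05, and 0 passed. In tissue RNA, fewer cells of a type and less RNA per cell cannot be told apart.

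**Figure D1:**
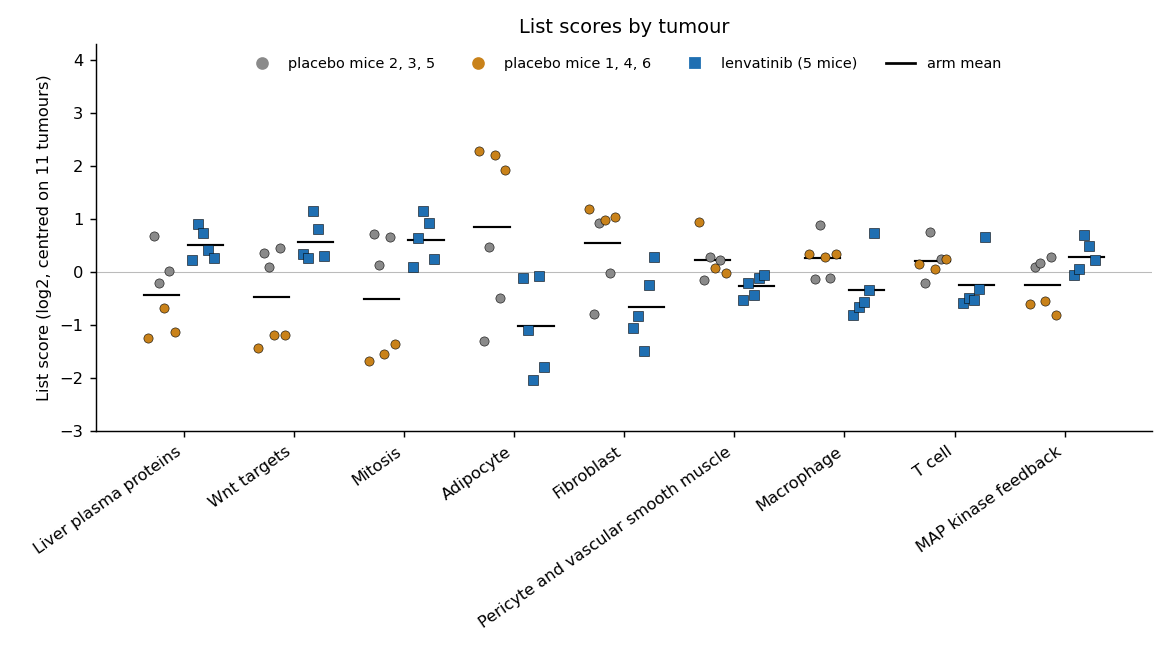
List scores by tumour: each point is the mean of a gene list in 1 tumour, on the log2 scale, relative to each gene's mean over the 11 tumours, with horizontal bars at the arm means. Placebo mice 1, 4 and 6 (orange) lie lowest in the Wnt target and mitosis lists and highest in the adipocyte list, while in the macrophage and T cell lists 4 of 5 lenvatinib tumours (blue) lie below every placebo tumour.

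Array quality also varied between tumours. Array medians lay between 5.32 and 5.49. The added hybridization controls averaged 11.46 to 11.87 on the arrays of placebo mice 4 and 6 and lenvatinib mice 1 and 2, and 10.60 to 11.12 on the other 7. The interquartile range of the signals was 2.52 to 2.82 on these bright arrays and 3.00 to 3.22 on the other 7. Skeletal muscle genes were high in placebo mice 1 and 5 and lenvatinib mouse 4, with list scores of 3.55, 3.36 and 3.28, and at or below 0.77 in the other 8.

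The 2 genes around which the comparison is easiest to follow are Lcn2 and Spred1. Lcn2 encodes lipocalin 2, an acute phase protein that withholds iron from bacteria, and had the smallest p on the lower side. Spred1 encodes a membrane-bound inhibitor of RAS activation and was the only gene of the MAP kinase list whose arms did not overlap. Their promoters, the 250 bases before the RefSeq start on GRCm38.p6, are shown in gene orientation, chr2:32387740-32387989 on the minus strand and chr2:117120821-117121070 on the plus strand. Capitals in Lcn2 mark the run ATAAAA, which resembles the box where transcription complexes assemble. Capitals in Spred1 mark CGGAAG, which holds the core bound by ETS factors such as Etv4.
Lcn2: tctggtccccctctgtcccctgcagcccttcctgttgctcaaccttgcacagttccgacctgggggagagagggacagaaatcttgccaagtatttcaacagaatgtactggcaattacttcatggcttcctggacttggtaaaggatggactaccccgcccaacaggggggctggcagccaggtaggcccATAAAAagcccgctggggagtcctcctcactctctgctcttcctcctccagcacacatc
Spred1: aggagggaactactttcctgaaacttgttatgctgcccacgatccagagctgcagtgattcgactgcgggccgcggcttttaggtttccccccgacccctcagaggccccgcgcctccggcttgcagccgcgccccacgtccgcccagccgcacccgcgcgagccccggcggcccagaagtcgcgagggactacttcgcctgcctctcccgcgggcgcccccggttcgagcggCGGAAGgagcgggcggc
Each motif occurs once on either strand, starting 59 bases before the start of Lcn2 and 17 bases before that of Spred1. Of 32851 RefSeq promoters of the same length, 17.0% hold ATAAAA and 13.6% hold CGGAAG on either strand.

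Lcn2 stood at 4.17, 6.58, 5.24, 6.38 and 5.38 in lenvatinib mice 1 to 5. In placebo mice 1 to 6 it stood at 9.24, 8.68, 8.38, 11.15, 6.45 and 10.07. Lenvatinib mouse 2 lay above placebo mouse 5, and every other lenvatinib tumour lay below every placebo tumour. The difference was -3.45 ± 0.78, with a 95% interval of -5.07 to -1.83 (limma adjusted p = 0.693), and it stood at -2.29 without placebo mice 1, 4 and 6. Over all settings run it ranged from -3.96 to -2.23.

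Spred1 stood at 7.02, 6.40, 7.16, 7.02 and 6.69 under lenvatinib and at 5.76, 5.83, 6.34, 6.29, 6.21 and 6.38 under placebo. The lowest lenvatinib tumour, mouse 2, lay just above the highest placebo tumour, mouse 6. The difference was 0.72 ± 0.21 (95% interval 0.28 to 1.16) and was of the same size, 0.73, without placebo mice 1, 4 and 6. Etv4, an ETS factor induced by FGF signalling, stood at 7.72, 7.79, 7.96, 7.38 and 6.89 under lenvatinib. Under placebo it stood at 5.12, 5.57 and 5.48 in mice 1, 4 and 6 and at 7.59, 6.51 and 7.40 in mice 2, 3 and 5. The arms overlapped, and the difference of 1.27 ± 0.52 stood at 0.38 without the 3 low tumours. Fos, an immediate early gene of the cascade, lay on the other side at -0.73 ± 0.31, from 5.52 to 6.53 under lenvatinib and from 5.82 to 7.25 under placebo. Of 18 MAP kinase genes measured, 15 lay above 0 and 3 below, with 4 higher and 1 lower at an unadjusted p under 0.05. The median of the list was 0.47, or 0.10 without placebo mice 1, 4 and 6.

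The receptors that lenvatinib inhibits overlapped between the arms, all 9 of those named here. Kdr, the main signalling VEGF receptor of endothelium, stood at 5.05, 5.12, 5.88, 6.21 and 6.45 under lenvatinib and ranged from 4.61 in placebo mouse 2 to 7.90 in placebo mouse 1. Its difference was -0.48 ± 0.62, and 0.25 without placebo mice 1, 4 and 6. Flt1, a VEGF receptor that mainly binds ligand away, stood at 0.27 ± 0.41, at -0.27 without them and at -0.03 without lenvatinib mouse 5. Flt4, the receptor of lymphatic endothelium, stood at 0.46 ± 0.30 and at -0.01 without them. The 95% intervals reached from -1.76 to 0.80 for Kdr, from -0.57 to 1.12 for Flt1 and from -0.16 to 1.07 for Flt4.

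Among the FGF receptors, Fgfr4, the hepatocyte receptor for FGF19 and mouse Fgf15, stood at 7.98, 8.16, 7.76, 7.45 and 6.89 under lenvatinib. Under placebo it stood at 5.19, 5.66 and 4.63 in mice 1, 4 and 6 and at 7.65, 6.57 and 7.59 in mice 2, 3 and 5, so its placebo levels followed those of albumin. The difference was 1.44 ± 0.66 and stood at 0.38 without the 3 tumours. Fgfr1, the receptor of mesenchymal cells, stood at -0.61 ± 0.34, and at -0.41 without them. Fgfr2 stood at -0.68 ± 0.56 and at 0.10 without them, and Fgfr3 stood at -0.07 ± 0.18. Of the ligands, Fgf10, a mesenchymal FGF, was at or below 4.43 in every lenvatinib tumour and at 6.06, 6.79 and 7.52 in placebo mice 1, 4 and 6, with a difference of -1.91 ± 0.68 that stood at -0.53 without these. Fgf7, which signals from mesenchyme to epithelium, stood at -0.45 ± 0.23 and, without them, at -0.42.

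Ret, the receptor of the GDNF family, stood at 5.98, 5.86, 5.30, 5.57 and 5.33 under lenvatinib and at 4.84 to 5.59, median 5.17, under placebo, a difference of 0.40 ± 0.16. That difference stood at 0.30 without placebo mice 1, 4 and 6 and at 0.15 without the arrays with bright controls. Kit, the stem cell factor receptor of mast and progenitor cells, was at 4.22 and 4.66 in lenvatinib mice 1 and 2, the 2 arrays with bright controls, and between 7.18 and 7.45 in mice 3, 4 and 5. Placebo tumours lay between 6.09 and 8.50, and the difference was -0.99 ± 0.81. Kitl, its ligand, stood at 8.33, 7.68, 9.56, 9.41 and 8.53 under lenvatinib and from 5.85 to 8.35 under placebo. The difference of 1.40 ± 0.52 stood at 0.55 without placebo mice 1, 4 and 6. Of the VEGF ligands, Vegfd stood at -0.82 ± 0.47 and placental growth factor (Pgf) at 0.49 ± 0.49. Over the 3 receptor lists, 4 of 9 VEGF axis genes, 3 of 12 FGF axis genes and 5 of 10 PDGF, KIT and RET axis genes lay above 0, with medians of -0.10, -0.15 and -0.03. Without placebo mice 1, 4 and 6 these medians were -0.14, 0.04 and -0.13, and without the arrays with bright controls they were 0.08, -0.26 and 0.06, so each median crossed 0 under 1 of these settings.

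**Figure D2:**
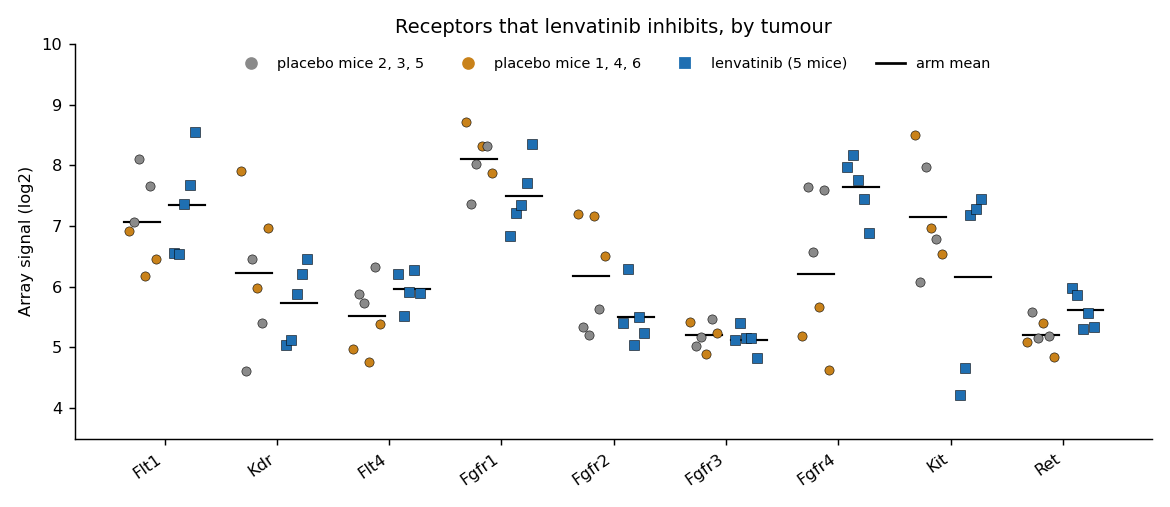
Array signals (log2) of 9 receptors that lenvatinib inhibits, 1 point per tumour, with bars at the arm means. The arms overlap for every receptor. Fgfr4 is lowest in placebo mice 1, 4 and 6 (orange), and Kit is lowest in 2 lenvatinib tumours.

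Blood vessel genes showed small and mixed differences, with the clearest values among junction and nitric oxide genes. Cldn5, the tight junction protein of endothelium, stood at 3.96, 4.37, 5.39, 6.01 and 6.23 under lenvatinib and from 5.40 to 8.73 under placebo, with a median of 6.87. The 3 lenvatinib tumours of mice 1 to 3 lay below every placebo tumour and the other 2 did not. The difference was -1.68 ± 0.71, and -0.84 without placebo mice 1, 4 and 6. Nos3, the nitric oxide synthase of endothelium, stood at 4.11, 4.16, 4.53, 4.18 and 4.55 under lenvatinib, close to the median of the negative controls of 4.08, and from 4.53 to 5.61 under placebo, a difference of -0.61 ± 0.23. Ramp2, a partner of the adrenomedullin receptor, stood at -0.96 ± 0.46. Without the arrays with bright controls Cldn5 stood at -0.83, Nos3 at -0.37 and Ramp2 at -0.67. Pecam1, a pan-endothelial adhesion molecule, stood at -0.06 ± 0.49. Of 18 endothelial genes 5 lay above 0 and 13 below, with 0 higher and 3 lower at an unadjusted p under 0.05, and the median was -0.17, or -0.07 without placebo mice 1, 4 and 6. Of 12 genes known to depend on VEGF in vessels, 6 lay on each side of 0, at a median of -0.01, or -0.14 without these 3. The median was 0.24 without the arrays with bright controls. The 12 genes include Rgcc at -1.20 ± 0.55 and the guidance receptor Unc5b at 0.85 ± 0.48, which stood at -0.39 and 0.07 without the 3 tumours. Lymphatic genes had a median of 0.14, or 0.07 without them, with podoplanin (Pdpn), also a fibroblast gene, at -1.10 ± 0.48 and at -1.11 without them.

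Pericyte and vascular smooth muscle genes lay below 0 throughout, 13 of 13, at a median of -0.37, and the median was -0.42 without placebo mice 1, 4 and 6 but -0.10 with the adipocyte score as a covariate. Tagln, an actin-binding protein of smooth muscle, stood at 8.85, 8.28, 7.69, 8.28 and 8.21 under lenvatinib and at 9.68, 9.10, 9.04, 9.84, 8.68 and 8.84 under placebo. Lenvatinib mouse 1 lay just above placebo mouse 6 and the other 4 lay below every placebo tumour. The difference was -0.93 ± 0.32, -0.68 without placebo mice 1, 4 and 6 and -0.44 with the adipocyte score as a covariate. Mcam, an adhesion molecule of mural and endothelial cells, stood at -0.96 ± 0.34 and the pericyte gene Higd1b at -0.70 ± 0.31, and -0.50 and -0.41 without the 3 tumours. At an unadjusted p under 0.05, 4 of the 13 were lower.

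Fibroblast genes showed the lowest median after the adipocyte list, and all 13 measured lay below 0, 6 of them at an unadjusted p under 0.05. The median was -1.24, -0.62 without placebo mice 1, 4 and 6, and -0.29 with the adipocyte score as a covariate. Mmp3, a matrix-degrading protease, stood at 6.03, 5.62, 5.54, 7.60 and 8.28 under lenvatinib and from 7.01 to 10.45 under placebo, with a median of 9.45. Placebo mouse 2 was the low one of its arm, and the difference was -2.37 ± 0.79, or -1.76 without the 3 tumours. Cthrc1, secreted by activated fibroblasts, stood at 4.01, 4.90, 4.13, 4.54 and 4.72 under lenvatinib and at 5.40, 5.57, 6.14, 5.43, 5.34 and 5.80 under placebo. The arms did not overlap, and the difference of -1.16 ± 0.32 stood at -1.23 without placebo mice 1, 4 and 6. Bmper, an extracellular regulator of BMP signals, ranged from 4.56 to 5.32 under lenvatinib and from 5.36 to 6.97 under placebo, at -1.23 ± 0.31, and at -0.78 without them. Mmp2 and Pi16, a protease and a marker of adventitial fibroblasts, stood at -1.61 ± 0.63 and -1.24 ± 0.46.

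Matrix genes lay mostly below 0 as well. Of 13 collagen chains 11 lay below 0, at a median of -0.40, or -0.20 without placebo mice 1, 4 and 6. Col5a2, a chain that starts collagen fibrils, stood at 6.01, 5.51, 5.78, 5.53 and 6.03 under lenvatinib and at 6.49, 6.04, 6.47, 6.45, 6.24 and 6.98 under placebo. The highest lenvatinib tumour and the lowest placebo tumour nearly touched, and the difference was -0.67 ± 0.26. Col3a1, a fibrillar chain, stood at -1.61 ± 0.65, and at -0.58 without the 3 tumours. In the elastic fibre list 6 of 9 lay below 0, at a median of -0.34, or -0.11 without them, with the microfibril gene Mfap5 at -1.53 ± 0.43 and the elastin cross-linking enzyme Loxl1 at -1.19 ± 0.42, which stood at -1.17 and -0.87 without them. The TGF-beta and BMP lists had medians of -0.11 and -0.10, and of -0.12 and -0.09 without them.

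Genes of the hepatoma cells lay mostly above 0. Most differences named here were smaller without placebo mice 1, 4 and 6, which were picked for their hepatoma and fat genes. Of 20 liver plasma proteins 18 lay above 0, 8 of them at an unadjusted p under 0.05, with a median of 0.61 that stood at 0.22 without placebo mice 1, 4 and 6. Prothrombin (F2) stood at 9.12, 9.45, 8.48, 8.59 and 8.52 under lenvatinib, at 6.33, 5.99 and 5.62 in placebo mice 1, 4 and 6, and at 8.87, 7.98 and 8.01 in placebo mice 2, 3 and 5. Its difference was 1.70 ± 0.58, and 0.55 without the 3 low tumours. Transthyretin (Ttr) kept more of its distance, at 7.93, 9.38, 8.71, 8.57 and 7.19 under lenvatinib and from 4.77 to 8.52 under placebo, a difference of 2.15 ± 0.79 that stood at 1.30 without them. Alb itself stood at 1.95 ± 0.88 and at 0.05 without them, and Afp at 2.56 ± 1.32 and at 0.14. The hepatocyte regulators Hnf4a and Foxa3 stood at 1.36 ± 0.67 and 1.12 ± 0.55, against 0.16 and 0.27 without them. Of the 10 liver transcription factors they belong to, 7 lay above 0 and 0 had an unadjusted p under 0.05, at a median of 0.21, or 0.04 without them. Abcc2, a canalicular export pump, stood at 2.38 ± 0.96 and at 0.75 without them, in a bile acid list with 6 of 10 genes above 0 at a median of 0.08, or 0.14 without them. Pzp, a plasma protease inhibitor, had the smallest p of all probe sets. It stood at 4.10, 5.31, 4.90, 4.71 and 4.73 under lenvatinib and at 3.33, 3.52, 3.64, 3.21, 3.52 and 4.04 under placebo, where every value lay below the negative-control median of 4.08. The arms did not overlap, the difference was 1.21 ± 0.25, and it was 1.19 without placebo mice 1, 4 and 6.

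Targets of beta-catenin lay above 0 in 8 of 8 genes, 4 of them at an unadjusted p under 0.05. The median of 0.97 stood at 0.24 both without placebo mice 1, 4 and 6 and with the adipocyte score as a covariate. Nkd1, an inhibitor that Wnt signals induce, stood at 9.85, 9.40, 10.05, 9.86 and 9.26 under lenvatinib. It stood at 5.61, 6.32 and 5.69 in placebo mice 1, 4 and 6 and at 9.60, 8.77 and 9.12 in placebo mice 2, 3 and 5, so the second 3 lay close to the lenvatinib range and the first 3 far below it. The differences of Nkd1, the ubiquitin ligase gene Znrf3 and the scaffold gene Axin2 were 2.17 ± 0.82, 1.62 ± 0.67 and 1.54 ± 0.65, against 0.52, 0.56 and 0.30 without the first 3. In the xenobiotic list, at a median of 0.00, or -0.06 without these 3, Cyp1a1, the cytochrome induced through the aryl hydrocarbon receptor, was the gene with the smallest p. It stood at 5.51, 4.29, 5.45, 5.69 and 4.33 under lenvatinib and at 3.26, 4.20, 3.89, 3.20, 4.37 and 3.46 under placebo. In 3 lenvatinib tumours it lay more than 1 log2 unit above every placebo tumour and in mice 2 and 5 it lay near the highest placebo values. The difference was 1.32 ± 0.47, and 0.90 without placebo mice 1, 4 and 6. The placebo median of Cyp1a1, 3.68, lay below the negative-control median of 4.08.

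Cell cycle genes followed the same split. Mitotic genes lay above 0 in 21 of 21, 7 at an unadjusted p under 0.05, at a median of 1.05 that stood at 0.12 without placebo mice 1, 4 and 6. Ube2c, which ends mitosis with the anaphase-promoting complex, stood at 9.26, 9.71, 8.75, 8.90 and 8.19 under lenvatinib and at 6.05, 9.14, 8.0, 6.24, 8.71 and 6.06 under placebo. Placebo mice 2, 3 and 5 lay within or just below the lenvatinib range. Replication genes had 19 of 20 above 0 at a median of 0.67, or 0.01 without the 3 tumours, with the licensing factor Cdt1 at 0.98 ± 0.42 and the helicase subunit Mcm5 at 0.92 ± 0.40. Cdkn2c, an inhibitor of the cell cycle kinases CDK4 and CDK6, barely separated, at 5.16 to 6.18 under lenvatinib and 6.18 to 8.16 under placebo, and stood at -1.46 ± 0.46, or -0.57 without them. Of the p53 targets 8 of 12 lay above 0, at a median of 0.25, or 0.07 without them, with the p53 ligase gene Mdm2 at 0.59 ± 0.26 and at 0.40 without them.

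Hypoxia and glycolysis genes, which rise through HIF when oxygen is short, lay above 0 in 14 of 16, 3 of them at an unadjusted p under 0.05. The median was 0.50 with all placebo tumours and -0.05 without placebo mice 1, 4 and 6. Pgk1, a glycolytic kinase, stood at 9.01, 8.19, 8.0, 8.21 and 8.24 under lenvatinib and from 6.73 to 8.60 under placebo, a difference of 0.91 ± 0.34 that stood at 0.32 without the 3. Pdk1, a kinase that inhibits pyruvate dehydrogenase, stood at 0.68 ± 0.27, and at 0.48 without them. Genes of the integrated stress response had 12 of 14 above 0 at a median of 0.31, and 0.00 without them, with the serine synthesis enzyme Phgdh at 1.21 ± 0.53 and 0.28.

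**Figure D3:**
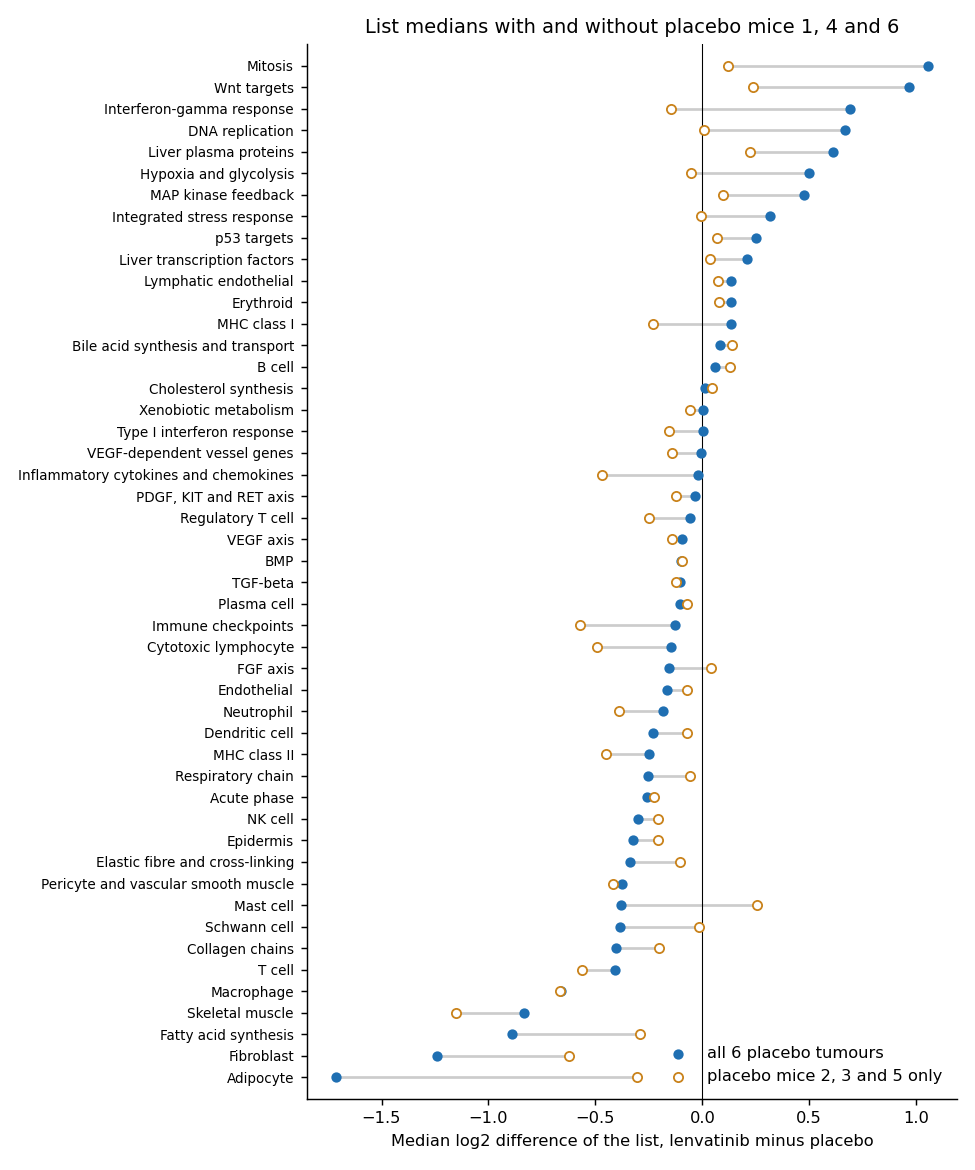
Median log2 difference (lenvatinib minus placebo) of each of 48 gene lists, with all 6 placebo tumours (blue) and with placebo mice 2, 3 and 5 only (open orange). The mitosis list moves from 1.05 to 0.12 and the adipocyte list from -1.71 to -0.31, while the macrophage list stays at -0.66 and the pericyte list goes from -0.37 to -0.42.

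Acute phase genes did not move together. Of 15 measured, 6 lay above 0 and 9 below, with 2 higher and 4 lower at an unadjusted p under 0.05, at a median of -0.26, or -0.23 without placebo mice 1, 4 and 6. Beside Lcn2, haptoglobin (Hp), a haemoglobin scavenger, stood at 7.62, 7.84, 6.46, 8.05 and 7.24 under lenvatinib and at 10.84, 8.13, 8.93, 10.68, 7.84 and 10.23 under placebo, with the highest values in mice 1, 4 and 6. The difference of -2.0 ± 0.70 stood at -0.86 without these. Orm3, an orosomucoid, stood at -0.99 ± 0.38, with 5 of 5 lenvatinib tumours below the negative-control median. Lcn2 and Hp are also made by fat cells, and the adipocyte genes below had their highest levels in the same 3 placebo tumours. With the adipocyte score as a covariate Hp stood at -0.48 and Lcn2 at -2.23. The adipocyte list score itself averaged -1.02 under lenvatinib and 0.85 under placebo, so this covariate takes up part of any difference between the arms. A role of fat content in the Lcn2 and Hp differences was not tested.

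The adipocyte list had the largest median difference of the 48 lists with all 11 tumours. Without placebo mice 1, 4 and 6 several medians lay below that of the adipocyte list, among them those of skeletal muscle, macrophage and fibroblast genes at -1.15, -0.66 and -0.62, and without the arrays with bright controls skeletal muscle was lower, at -1.93 against -1.28. Adipocyte genes lay below 0 in 10 of 10, 4 at an unadjusted p under 0.05, at a median of -1.71, or -0.31 without placebo mice 1, 4 and 6. Adipocyte list scores ranged from -2.03 to -0.07 under lenvatinib and from -1.30 to 2.28 under placebo. Adipoq stood at -3.19 ± 1.33, the hormone gene Retn at -3.64 ± 1.35 and the fat cell regulator Pparg at -1.67 ± 0.63, against -1.48, -2.08 and -0.59 without the 3. Of 10 fatty acid synthesis genes 8 lay below 0, at a median of -0.89, with Thrsp, a regulator of lipogenesis, at -3.98 ± 1.35 and the desaturase gene Scd1 at -1.67 ± 0.77. Without placebo mice 1, 4 and 6 the median was -0.29, Thrsp stood at -2.57 and Scd1 at -0.63. With the adipocyte score as a covariate the median was -0.03, Thrsp stood at -1.04 and Scd1 at -0.03. Several lipid genes had arms that did not overlap. Angptl4, an inhibitor of lipoprotein lipase, stood at 6.01, 6.28, 6.59, 6.69 and 6.69 under lenvatinib and at 8.24, 7.18, 7.23, 8.34, 6.72 and 7.98 under placebo, at -1.16 ± 0.33. G0s2, an inhibitor of fat cell lipase, stood at -1.42 ± 0.48, and Slc25a20, the mitochondrial carrier of acylcarnitines, at -1.49 ± 0.51. Nnmt, which methylates nicotinamide, stood at -1.43 ± 0.49. Without placebo mice 1, 4 and 6 these 4 stood at -0.59, -0.54, -0.97 and -0.75. Respiratory chain genes lay below 0 in 15 of 15 at a median of -0.26, or -0.06 without them.

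Macrophage and T cell genes lay low in lenvatinib mice 1 to 4 and not in mouse 5. Macrophage list scores were -0.82, -0.66, -0.57 and -0.33 in lenvatinib mice 1 to 4 and 0.73 in mouse 5, against -0.12 to 0.89 under placebo. Of 17 macrophage genes 16 lay below 0, 3 at an unadjusted p under 0.05, at a median of -0.66 that was the same without placebo mice 1, 4 and 6 and stood at -0.29 without the arrays with bright controls. Cd14, the co-receptor for bacterial lipopolysaccharide, stood at 5.93, 6.09, 6.48, 6.65 and 7.08 under lenvatinib and at 7.42, 7.66, 7.67, 7.78, 7.03 and 7.02 under placebo. Lenvatinib mouse 5 lay just above placebo mice 5 and 6, and the other 4 lay below every placebo tumour. The difference of -0.98 ± 0.28 was -1.01 without placebo mice 1, 4 and 6. Trem2, a lipid-sensing receptor of macrophages, stood at 7.18, 7.26, 6.92, 6.88 and 8.92 under lenvatinib and from 7.59 to 9.41 under placebo, with mouse 5 again within the placebo range, at -1.35 ± 0.58. Fcrls, an Fc receptor-like gene of the macrophage lineage, stood at -1.19 ± 0.31 and Clec4d, a lectin receptor of myeloid cells, at -1.28 ± 0.62.

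T cell genes lay below 0 in 11 of 11, with 0 at an unadjusted p under 0.05, and had a median of -0.41, or -0.56 without placebo mice 1, 4 and 6 and -0.18 without the arrays with bright controls. The list scores were -0.57, -0.49, -0.52 and -0.31 in lenvatinib mice 1 to 4 and 0.66 in mouse 5, against -0.20 to 0.75 under placebo. Cd3e, a chain of the T cell receptor complex, stood at 5.44, 6.55, 6.74, 7.26 and 8.56 under lenvatinib and from 6.89 to 8.38 under placebo, a difference of -0.78 ± 0.49. Lenvatinib mouse 5 lay above every placebo tumour and mice 1 to 3 below every one. Cd8b1, which encodes the CD8 beta chain, stood at -0.65 ± 0.52 and Pdcd1, which encodes PD-1, at -0.54 ± 0.50. Without the arrays with bright controls Cd3e stood at -0.06, Cd8b1 at -0.13 and Pdcd1 at -0.05. NK cell genes lay below 0 in 8 of 8, at a median of -0.30, B cell genes lay above 0 in 7 of 10 at 0.06, and neutrophil genes lay below 0 in 9 of 13 at -0.18, with medians of -0.21, 0.13 and -0.39 without placebo mice 1, 4 and 6. The medians of the MHC class II and checkpoint lists were -0.25 and -0.13, or -0.45 and -0.57 without these 3, and the checkpoint median was 0.17 without the arrays with bright controls.

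Interferon-gamma response genes lay above 0 while the T cell and NK cell genes lay below. Of 14 measured 13 were above 0, 2 at an unadjusted p under 0.05, at a median of 0.69. Irgm1, a GTPase of cell-intrinsic defence, stood at 8.30, 8.24, 8.07, 7.98 and 8.39 under lenvatinib, at 6.26, 6.93 and 6.25 in placebo mice 1, 4 and 6, and at 8.02, 7.94 and 7.84 in placebo mice 2, 3 and 5. Its difference was 0.99 ± 0.37, or 0.26 without the 3, and the list median was then -0.15. Cd274, which encodes PD-L1, was at 0.65 ± 0.39, and at 0.03 without them. Type I interferon genes had a median of 0.00, or -0.16 without them, and Usp18, which dampens their receptor, stood at 1.04 ± 0.45 and at 0.10 without them.

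The probe sets whose arms did not overlap included genes of many kinds. On the higher side the largest difference among named genes above the negative-control median was Luzp4, at 4.98 to 6.38 under lenvatinib and 2.91 to 4.92 under placebo, 1.64 ± 0.57. It stood at 0.78 without placebo mice 1, 4 and 6. Cep170b, a microtubule-associated protein, stood at 7.41, 6.85, 7.43, 7.34 and 6.91 under lenvatinib and at 5.43, 6.60, 6.26, 5.11, 6.68 and 4.36 under placebo, 1.45 ± 0.43. Placebo mice 1, 4 and 6 were the lowest for Cep170b, and its difference was 0.67 without them. Wdr3, a factor in making the small ribosomal subunit, was tight in both arms, at 6.04 to 6.43 against 5.35 to 5.70, with a difference of 0.66 ± 0.17 that stood at 0.71 without them. Wasf1, an actin regulator, and Tspan5, a tetraspanin, stood at 0.86 ± 0.20 and 0.85 ± 0.26. The placebo medians of Wasf1 and Luzp4 were 4.12 and 4.06, near the negative-control median of 4.08. Also without overlap, and named after their values were seen, were the splicing genes Sf3a1 and Slu7 at 0.79 ± 0.24 and 0.56 ± 0.19 and the helicase gene Dhx37 at 0.70 ± 0.26. These stood at 0.45, 0.40 and 0.36 without placebo mice 1, 4 and 6.

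On the lower side the largest differences without overlap were in the tight junction genes Cldn8 and Cldn7, at -1.89 ± 0.80 and -1.62 ± 0.67. They stood at -1.10 and -1.0 without placebo mice 1, 4 and 6, and at -0.55 and -0.51 with the adipocyte score as a covariate. The lowest placebo value of Cldn8 was 4.32, near the negative-control median of 4.08, and every lenvatinib value lay below it. Cldn7 stood at 5.00, 5.17, 5.61, 5.31 and 5.68 under lenvatinib and at 7.69, 6.36, 6.99, 8.30, 5.71 and 6.79 under placebo, with placebo mouse 5 next to the lenvatinib range. Ifi27, an interferon-inducible mitochondrial protein, stood at 7.07, 7.31, 7.26, 7.61 and 7.73 under lenvatinib and at 10.20, 8.22, 8.63, 9.34, 8.16 and 9.01 under placebo. The difference was -1.53 ± 0.48, and -0.94 without placebo mice 1, 4 and 6. Ramp1, a partner of the receptor for the neuropeptide CGRP, stood at 5.23 to 5.61 under lenvatinib and 5.66 to 6.98 under placebo. The difference was -0.97 ± 0.27, and -0.46 without placebo mice 1, 4 and 6. Also without overlap, and named after their values were seen, were Hey1, a Notch target, at -1.12 ± 0.46, the integrin gene Itga8 at -1.27 ± 0.42 and the Wnt receptor gene Fzd2 at -0.74 ± 0.26. Without the 3 placebo tumours they stood at -0.55, -0.75 and -0.78. Keratin 14 (Krt14), a marker of basal keratinocytes, overlapped between the arms and stood at -1.51 ± 0.59, and skin genes as a list had a median of -0.32, or -0.21 without the 3 tumours.

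**Figure D4:**
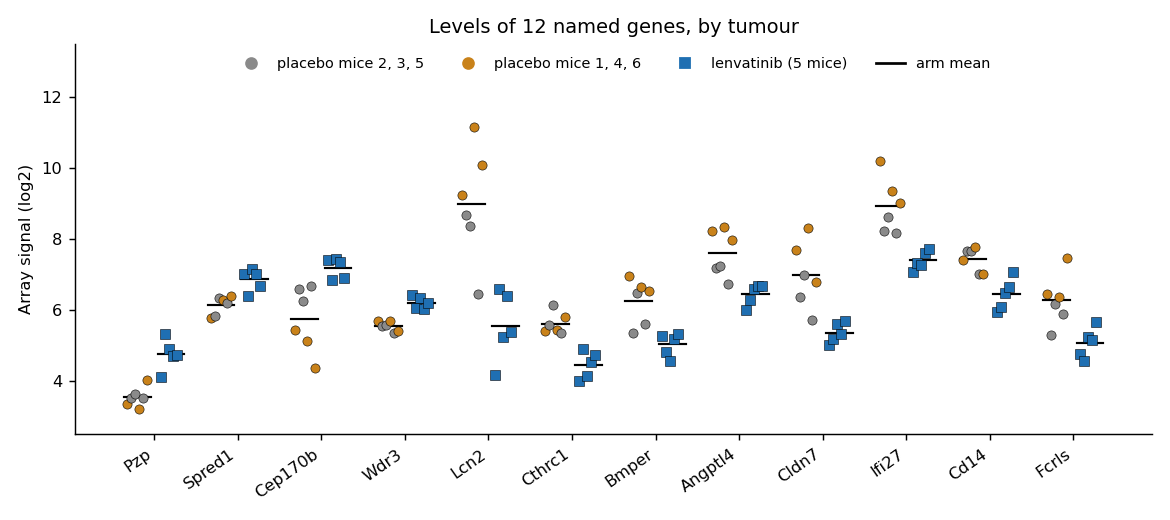
Array signals (log2) of 12 named genes, 1 point per tumour, with bars at the arm means. Pzp, Spred1 and Cthrc1 are apart between the arms with placebo mice 1, 4 and 6 (orange) among the other placebo tumours, while for Cep170b and Angptl4 these 3 lie farthest from the lenvatinib tumours (blue).

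Lenvatinib was also given with the anti-PD1 antibody, and combination against anti-PD1 shares no mouse with the comparison above. The 2 differences did not run in parallel. Across probe sets, which are not independent of each other, their correlation was -0.09. Of the 649 probe sets higher with lenvatinib alone at an unadjusted p under 0.05, 164 (25.3%) were also above 0 with the antibody, where 48.1% of all probe sets were. Of the 899 lower ones, 478 (53.2%) were also below 0, where 51.9% of all were. Of the probe sets without overlap, 23 of 64 higher and 47 of 67 lower kept their side.

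Several vessel and fat genes lay low under lenvatinib in both settings, but single vessel genes do not stand for their lists. The endothelial list had medians of -0.17 alone and -0.39 with the antibody, with 5 and 3 of 18 genes above 0. The VEGF-dependent list had medians of -0.01 and -0.22, with 6 and 4 of 12 genes above 0. Of 18 endothelial genes 10 had the same sign in both settings, and of 12 VEGF-dependent genes 6 did, where 46.0% of all probe sets did. Among those that changed sign, Pecam1 stood at -0.06 alone and 0.10 with the antibody, and Cxcr4 at -0.61 and 1.77. Tm4sf1, a membrane protein of endothelial and tumour cells, stood at -0.96 ± 0.27 alone and at -0.98 with the antibody. Mcam stood at -0.96 and -1.50, Nos3 at -0.61 and -0.83, Cldn5 at -1.68 and -0.99, and Lcn2 at -3.45 and -1.41. Adipocyte genes lay below 0 in 10 of 10 with the antibody too, at a median of -1.06, and pericyte genes in 12 of 13 at -0.40. None of these genes passed the test with lenvatinib alone.

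T cell and macrophage genes lay on opposite sides. All 11 T cell genes lay below 0 alone and all 11 above 0 with the antibody, at medians of -0.41 and 1.51, and macrophage genes had medians of -0.66 and 1.44. The hybridization controls were also bright on the arrays of anti-PD1 mouse 1 and combination mouse 1, at 11.88 and 11.79. The difference with the antibody was not computed without bright arrays. Interferon-gamma response genes, at 0.69 and 0.43, and B cell genes, at 0.06 and 1.45, had medians above 0 in both. Cd8b1 stood at -0.65 alone and 2.48 with the antibody, a difference between the differences of 3.13 ± 0.75 (limma interaction, adjusted p = 0.152). Trem2 stood at -1.35 and 2.27, and the interaction was 3.62 ± 0.84 (adjusted p = 0.151). Kitl lay the other way, at 1.40 alone and -1.0 with the antibody. The interaction passed for 0 probe sets (0%), with the smallest adjusted p = 0.151, and at an unadjusted p under 0.05 it was positive in 1266 (5.7%) and negative in 736 (3.31%). With array weights it passed for 1691 of the 22206 probe sets and without lenvatinib mouse 5 for 81 of them. Among these were 10 and 4 of the 11 T cell genes and 12 and 3 of the 17 macrophage genes. The array weights were very uneven, from 0.18 for anti-PD1 mouse 1 to 3.63 for lenvatinib mouse 4. Lenvatinib mice 1 and 2, whose arrays had bright controls, had weights of 0.27 and 0.36 and so counted little. Lenvatinib mouse 5 had the highest T cell and macrophage scores of its arm, so leaving it out lowers the arm means of these genes. Without placebo mice 1, 4 and 6 the interaction passed for 0, with the smallest adjusted p = 0.777. Spred1 and Pzp, which lay apart between the arms alone, stood at 0.07 and 0.06 with the antibody.

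**Figure D5:**
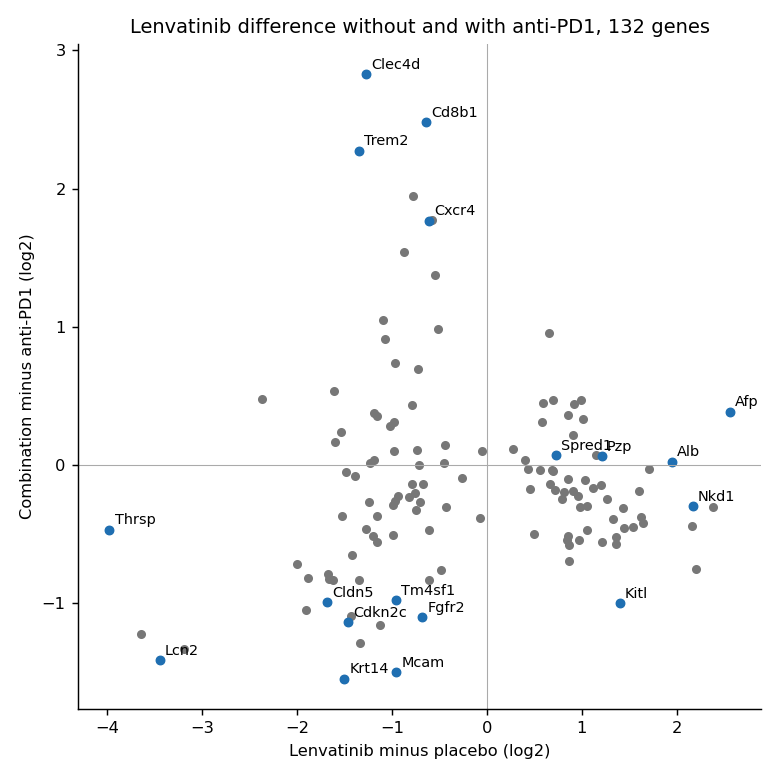
Log2 difference of 132 named genes under lenvatinib without the antibody (lenvatinib minus placebo, horizontal) and with it (combination minus anti-PD1, vertical), 1 point per gene, with 18 genes labelled in blue. Apart from the receptors and defining markers, the genes were named for their differences on the horizontal axis. Lcn2, Mcam and Tm4sf1 lie low on both axes, while Cd8b1, Trem2 and Clec4d lie below 0 on the horizontal and above 2 on the vertical.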

How the data were processed

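Gene expression was measured on Clariom S mouse arrays, 1 per mouse. The deposited values are log2 signals. Per the submitters' processing notes, the authors used RMA and oligo, whose versions are not stated. RMA subtracts background, gives all arrays the same distribution and summarizes probes, so levels are relative and a shift common to most genes is lost. The genome build is not given in the sources used here. The table held 29129 rows, and 6923 control rows were left out. Of the 22206 probe sets tested, 19572 have 1 gene symbol, 0 have several and 2634 are unnamed here, Pdgfra among these. The number of arrays limits the precision. Each array is from a different animal, and p-values reflect the spread between animals.

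limma 3.58.1 in R 4.3.3 fitted 4 group means over 21 arrays (lmFit, eBayes), tested lenvatinib minus placebo and the interaction two-sided, and adjusted over all probe sets by Benjamini-Hochberg at 0.05. The fit was tested on simulated data. Dim probe sets were kept. The median of 5222 negative controls was 4.08, and 5715 probe sets had an 11-tumour mean at or below it. The 48 gene lists hold 628 genes, of which 575 were measured. Where a gene had several probe sets, the brightest over all 21 tumours was used. No list was tested.

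Named genes were, in each direction, the 12 with the smallest p and the 10 with the largest difference without overlap, all above the negative-control median, the inhibited receptors, up to 3 of each list with the smallest p, and defining markers such as Alb, Afp, Pecam1 and Pdcd1. Members and lists were chosen with earlier results of these data known. Mouse numbers do not pair the arms: same-numbered tumours' deviations correlated at -0.23, 0.16, 0.28, -0.36 and -0.07. Promoters are from RefSeq GRCm38.p6, which held 94 of the 132 named genes by symbol.

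Alternatives were a fit of the 2 arms, no dim probe sets, trend and robust settings, cyclic loess, array weights, a covariate for hybridization controls, muscle score or adipocyte score, omission of arrays with bright controls, the mouse number as a block, other thresholds, and leaving out each lenvatinib or placebo mouse. Leaving out placebo mice 1, 4 and 6 was added after seeing the data, and these mice were picked by their hepatoma and fat genes.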

Additional observations from a re-analysis of the deposited data

Results flagged for a closer look

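Among 360 arm values of 132 genes and 48 lists, 19 held a tumour far from the other tumours of its arm, 9 in the lenvatinib arm and 10 in the placebo arm. Chance alone marks about 1 in 20 such groups, and the number found is close to that.

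Lenvatinib mouse 5 stood apart most often, always on the high side and mostly in immune genes. It had Trem2 at 8.92, Ms4a7, a membrane protein of macrophages, at 11.1 and the MHC class II gene H2-Aa at 11.1. Its list scores were 0.66 for T cells, 0.64 for regulatory T cells and 0.17 for collagen chains. Lenvatinib mouse 1 stood high in Pgk1 at 9.01 and low in Slc25a20 at 4.31, and lenvatinib mouse 2 stood high in the epidermis list at 0.86.

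In the placebo arm, mouse 1 stood high in Slc25a20 at 9.36, in Pccb, a mitochondrial carboxylase subunit, at 7.26 and in the respiratory chain list at 0.86. Placebo mouse 4 stood low in Pdk1 at 4.64, Wasf1 at 3.18 and the lymphatic list at -0.34. Placebo mouse 3 stood low in the mast cell protease Cma1 at 3.80 and high in the MHC class II list at 0.60. Placebo mouse 6 stood low in the elongation factor Supt5 at 7.09, and placebo mouse 2 in the erythroid list at -0.45.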

How the results depend on the processing

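Lenvatinib against placebo called 0 probe sets under every alternative that kept the threshold on adjusted p, leaving out each of the 11 mice included, and 105 passed an unadjusted p under 0.05 without overlap. With the mouse number as a block it called 0, with 373 higher and 659 lower at an unadjusted p under 0.05. The interaction called 1691 with array weights, 0 with the block and 0 to 81 with each of the 11 lenvatinib and placebo mice left out. No anti-PD1 or combination mouse was left out. Of the 132 named genes 124 kept their direction in every setting. Kdr stood at 0.083 without the arrays with bright controls, at 0.37 with the adipocyte score and at 0.25 without placebo mice 1, 4 and 6. In these 3 settings, in order, Pecam1 stood at 0.20, 0.21 and, with no change of side, -0.03. Pecam1 also stood at 0.12 with array weights and at 0.020 with the muscle score. With the adipocyte score Flt4 stood at -0.017, Fgfr2 at 0.19 and Pgf at -0.17. Without placebo mice 1, 4 and 6 Flt1 stood at -0.27, Flt4 at -0.014, Fgfr2 at 0.10 and Pgf at -0.52. Vegfd stood at 0.068 without the bright arrays. With each mouse left out Flt1 ranged from -0.028 to 0.48, Fgfr3 from -0.14 to 0.0046 and Pecam1 from -0.29 to 0.18. Lenvatinib mouse 5 turned Flt1 and Fgfr3 when left out, and lenvatinib mice 1 and 2 and placebo mice 1 and 3 turned Pecam1. Of the 48 list medians 23 kept their sign in every setting. The BMP median stood at 0.10 without the bright arrays, that of bile acid genes at -0.12 without lenvatinib mouse 1 and that of regulatory T cells at -0.42 without lenvatinib mouse 5. The cause of these shifts was not tested. Leaving out 3 placebo tumours also leaves fewer mice, so its wider intervals do not show that a difference is absent. Genes near the negative controls, such as Pzp, Nos3, Wasf1, Luzp4 and Cyp1a1, have compressed differences.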
